A study of Rattus norvegicus and Ovis aries with 113 samples.

Results

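The front and the back of the sheep neocortex were compared by bulk RNA sequencing. The anterior side was made of the prefrontal (PC), frontal (FC) and motor (MC) dissections and the posterior side of the posterior parietal (PPC) and visual (VC) dissections, each sampled once in 5 post-pubertal male sheep numbered 687, 688, 690, 694 and 699. These are 15 anterior and 10 posterior libraries, 25 of the 113 samples of a series that also holds other brain regions and sperm of the same sheep and brain, sperm and ovary of rats. All dissections of an animal came from 1 hemisphere, RNA was extracted with TRIzol, and no treatment or genotype is given. The animal was the replicate, so that each comparison had 5 pairs.

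The neocortex is a layered sheet of excitatory and inhibitory neurons and glia that is divided into areas along its front-to-back axis. In the embryo, signals released at the edges of the sheet set up opposing gradients of transcription factors: PAX6 and SP8 are high towards the front, EMX2 and NR2F1 (COUP-TFI) towards the back. Retinoic acid, a vitamin A derivative that acts through nuclear receptors, is known for its part in building the frontal areas. Adult areas keep differences in layer thickness, in the projection neurons of the deep layers and in adhesion and guidance molecules.

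Each library held between 49178014 and 72403425 reads assigned to genes. Between 12.0% and 32.0% of them fell on entries of the mitochondrial genome. Markers of excitatory neurons, inhibitory neurons, astrocytes, oligodendrocytes and microglia were present in all 25 libraries. A library stood apart: in the library labelled MC of sheep 687, the choroid plexus transthyretin gene TTR was at 742 CPM (counts scaled to library size) and at 58.8 CPM or less elsewhere, and the peptide gene CARTPT at 251 CPM against 16.3 CPM or less. The upper-layer factor CUX2 was at 9.80 CPM in that library, while the summed level of 9 striatal markers ranged over all libraries from 72.2 to 204 CPM. Some values that move with this MC library are also given without it. Counts of list members include it unless stated. The PPC library of sheep 694 stood apart too, with the lowest median Spearman correlation with the others (0.935, beside 0.939 for the MC library of sheep 687). Its mean log2(CPM + 1) of endothelial markers was 7.29, against 5.89 or less elsewhere. For FC and MC against PPC, leaving out that library leaves sheep 694 without a pair. It therefore equals the fit without sheep 694, given below. Whether each library holds the dissection on its label was not tested, and every region or side value below is that of the libraries so labelled.

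Libraries of 1 region resembled each other little, by the median, from sheep to sheep. Over 13276 genes with a mean of at least 3 CPM, each library's log2(CPM + 1) values were taken as deviations from the mean of all 25 libraries and correlated across genes with those of the other 4 animals. The closest library came from the same region for 11 of 25 libraries and from the same side for 18 of 25, namely 12 of 15 anterior and 6 of 10 posterior libraries. The median Pearson correlation between animals was 0.04 within a region, -0.05 between regions of the same side and -0.14 between sides. The medians followed region and side and were near 0, while single pairs within a region ran from -0.65 (VC) to 0.61 (FC). These correlations are across genes, which are not independent replicates, and serve as a description.

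The main comparison asked which genes differ between the anterior and the posterior side within the same animals. The retinoid X receptor gamma gene RXRG, a nuclear receptor that pairs with retinoic acid receptors, was the only gene that passed, at an adjusted p below 0.05, and it was higher in the anterior side of all 5 sheep. That is 1 of 20855 genes tested, or 0.0048%. In the anterior side the mean RXRG level of the 3 libraries was 6.71, 1.84, 2.94, 1.96 and 4.25 CPM in sheep 687, 688, 690, 694 and 699. In the posterior side of the same animals it was 2.57, 0.585, 0.976, 0.863 and 1.55 CPM. The anterior value exceeded the posterior value within each sheep, but the sides overlapped between sheep, since the posterior side of sheep 687 was above the anterior sides of sheep 688 and 694. The level was 2.82-fold higher in front, a log2 fold change of 1.5 ± 0.12 (SE, n = 5 pairs), with an adjusted p of 0.0301 in edgeR's quasi-likelihood test.

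The anterior region with the highest RXRG level differed between sheep. In MC its level was 17.1, 3.92, 2.31, 0.913 and 3.00 CPM in sheep 687, 688, 690, 694 and 699. In FC it was 2.01, 0.726, 4.10, 1.73 and 6.16 CPM, and in PC 1.01, 0.874, 2.41, 3.22 and 3.58 CPM. It was MC in sheep 687 and 688, FC in sheep 690 and 699, and PC in sheep 694. In PPC the levels ran from 0.642 to 3.75 CPM and in VC from 0.527 to 1.45 CPM. The call was lost without the MC library of sheep 687 that stood apart, where the log2 fold change was 1.08 and the adjusted p 0.383, and where edgeR called 0 genes, with 2595 at an unadjusted p below 0.05. Without the whole animal 687, in contrast, RXRG had an adjusted p of 0.0152 and the number of genes called was 102. Leaving out sheep 688, 690, 694 or 699 gave RXRG adjusted p values from 0.0746 to 0.424 and 0 genes called.

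**Figure D1:**
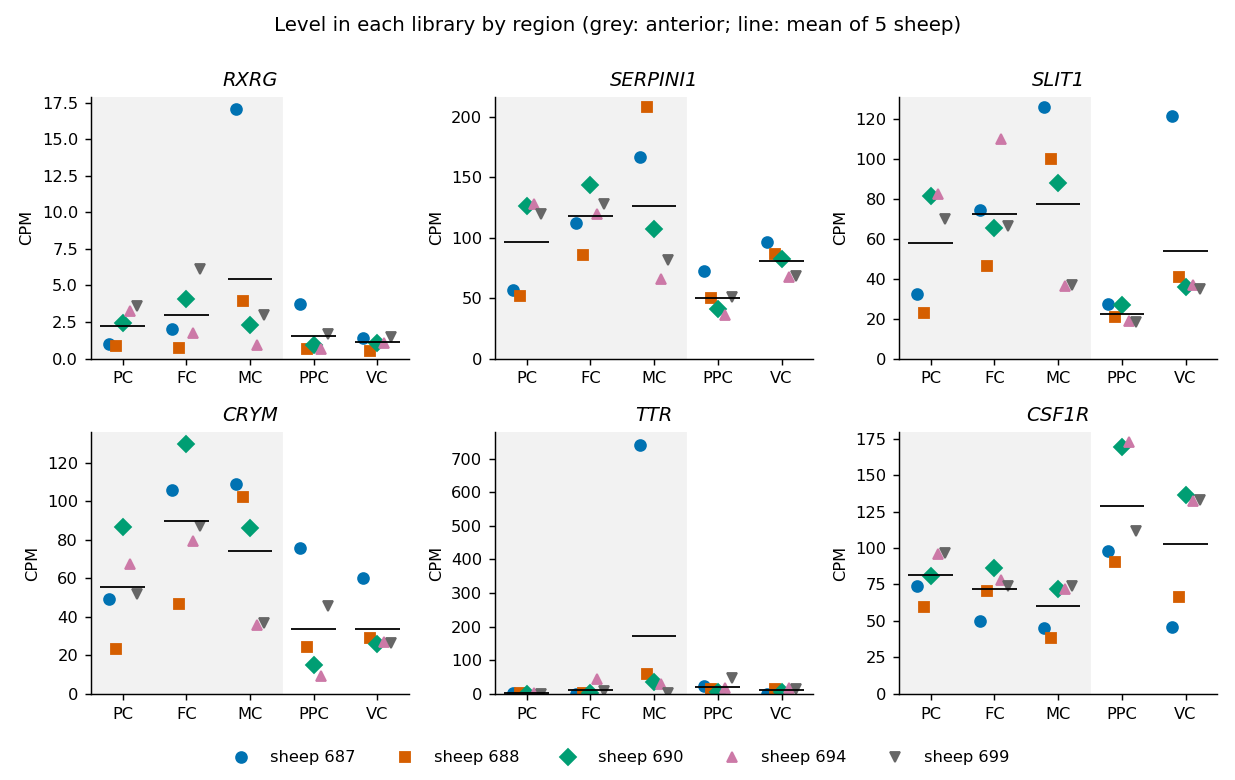
CPM of RXRG, SERPINI1, SLIT1, CRYM, TTR and CSF1R (y axes) in each of the 25 libraries, by region (x axes), 1 symbol per sheep, with the mean of 5 sheep as a line and the anterior regions on grey. The MC library of sheep 687 holds the highest RXRG value (17.1 CPM) and the highest TTR value (742 CPM), and SERPINI1 is lower in PC than in MC in sheep 687 and 688 and higher in PC than in MC in sheep 690, 694 and 699.

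Many more genes leaned one way than passed. At an unadjusted p below 0.05 there were 2741 genes, 13.1% of those tested, of which 1287 (6.17%) were higher and 1454 (6.97%) lower in the anterior side. A difference of the same sign in all 5 sheep was seen in 2718 genes (13%), higher in front for 7.26% and lower for 5.77% of those tested. In 160 genes (0.767%) the 5 anterior values did not overlap the 5 posterior values, with 0.48% higher and 0.288% lower in front. These shares are the background for the counts of list members that follow. Other genes with small p values, named after their values were seen, missed the threshold. SERPINI1, which encodes neuroserpin, a protease inhibitor secreted by neurons, was at 112, 115, 126, 104 and 109 CPM in the anterior side and at 84.3, 68.1, 61.9, 52.0 and 59.8 CPM in the posterior side of sheep 687 to 699. Its 2 sides did not overlap and differed by 0.83 ± 0.10 (log2, SE), with an adjusted p of 0.152 in edgeR. LIN28B, an RNA-binding protein that blocks let-7 microRNAs, was low throughout, at 0.645 ± 0.178 CPM against 0.155 ± 0.0782 CPM. TOP2A, a topoisomerase of dividing cells, was at 1.55 ± 0.507 CPM in the anterior and 3.02 ± 0.578 CPM in the posterior side, again without overlap.

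Regulators of cortical area patterning showed small differences. Of 37 tested members of a list of patterning transcription factors and signals, 0 were called, 3 were higher and 4 lower at an unadjusted p below 0.05, and the median log2 fold change was -0.06, against 0.00 over all genes tested. NR2F1 was at 113, 96.5, 103, 94.8 and 87.8 CPM in the anterior and at 116, 109, 126, 110 and 121 CPM in the posterior side. Each sheep thus had the lower value in front, by -0.24 ± 0.09 (log2, SE), with an adjusted p of 0.339 in edgeR. EMX2 differed by -0.10 ± 0.14, PAX6 by 0.01 ± 0.09 and SP8 by -0.20 ± 0.16, with 2, 2 and 1 of 5 sheep higher in front and adjusted p values of 0.784, 0.978 and 0.598 in edgeR. The signs of these 3 turned in some alternatives. The LIM protein gene LMO4 differed by 0.37 ± 0.15 (higher in front in 4 of 5 sheep) and the neuronal bHLH factor BHLHE22 by 0.52 ± 0.17 (5 of 5). The zinc finger factor TSHZ2 had the widest difference of the list, -1.24 ± 0.61, but its posterior mean was 36.5 and 54.9 CPM in sheep 687 and 699 and 12.2 CPM or less in the other sheep.

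In the retinoic acid pathway, RXRG was the 1 member called among 19 tested, and the list's median was 0.02. The retinoic acid synthesizing enzyme ALDH1A1 lay in the opposite direction, at 20.0 ± 5.33 CPM in front and 38.4 ± 9.23 CPM at the back, a log2 difference of -0.97 ± 0.21 with an adjusted p of 0.246 in edgeR. The binding protein CRABP2 differed by -0.52 ± 0.15. CBLN2, a synaptic organizer that retinoic acid is known to raise in frontal cortex, differed by 0.41 ± 0.13 and was higher in front in 4 of 5 sheep. These 3 genes missed the threshold.

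Genes of deep-layer neurons lay mostly above 0, as did general markers of excitatory neurons. Of these 8 markers, 7 were above 0, with a median of 0.22 and 0 called. At an unadjusted p below 0.05, 0 of the 8 were higher and 1 was lower. Among layer 6 and subplate genes, 7 of 16 were higher and 0 lower at an unadjusted p below 0.05, with a median of 0.31 and 0 called. Between PC and VC alone, a contrast described further below, the median of these genes was -0.11. There, 0 of 15 were higher and 2 lower at an unadjusted p below 0.05. SEMA3E, a secreted semaphorin made by layer 6 neurons, was at 45.1, 27.1, 20.4, 28.9 and 18.6 CPM in front and at 20.4, 20.4, 13.6, 15.6 and 8.21 CPM at the back, a difference of 0.81 ± 0.13, or 0.46 without the MC library of sheep 687. Among layer 5 genes, 4 of 15 were higher and 1 lower. CRYM, a thyroid hormone binding protein, differed by 1.26 ± 0.26 and the serotonin receptor HTR2C by 1.26 ± 0.20 (0.87 without that library), and both were higher in front in all 5 sheep. HTR2C was low, with a median of 0.664 CPM over all 25 libraries and its highest value, 5.27 CPM, in that MC library. Choroid plexus and ependyma markers had a median of 0.71, with 6 of 6 above 0 and 0 called. Their part in the HTR2C difference was not tested. Layer 4 genes had 0 of 9 at an unadjusted p below 0.05, and upper-layer genes 2 higher and 3 lower of 12. Among interneuron genes, calretinin (CALB2) differed by 1.04 ± 0.21 and the peptide VIP by -0.41 ± 0.10, each with the same sign in all 5 sheep.

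Signalling and wiring genes gave 0 calls in this comparison as well. Neuropeptide genes had a median of 0.33, with 8 of 28 higher and 1 lower at an unadjusted p below 0.05; SCG2, a granin of secretory granules, was at 356 ± 39.7 CPM in front and 234 ± 44.2 CPM at the back without overlap. SLIT1, a repellent axon guidance ligand, was at 77.7, 56.5, 78.3, 76.4 and 57.6 CPM in front and at 74.4, 30.7, 31.5, 27.7 and 26.7 CPM at the back. The sides were close in sheep 687 and far apart in the other sheep, and the fitted difference was 0.99 ± 0.18 with an adjusted p of 0.238 in edgeR. The ephrin receptor EPHA6 had the opposite order, at 22.3 ± 4.25 CPM in front and 28.8 ± 4.69 CPM at the back, and was lower in front in 5 of 5 sheep. The immediate early gene ARC, which neuronal activity induces, differed by -0.88 ± 0.29, and the median of the 23 immediate early genes was -0.03.

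Microglial markers had lower values in front. Of 8 markers, 7 were lower at an unadjusted p below 0.05 and the median was -0.45, though 0 were called. CSF1R, the receptor that microglia need to survive, was at 56.5, 56.2, 79.6, 81.9 and 81.4 CPM in front and at 71.7, 78.6, 153, 153 and 122 CPM at the back. It was lower in front within each sheep, and the 2 lowest posterior values lay among the anterior values. The mean log2(CPM + 1) of the 8 markers was 4.39 ± 0.185 in front and 4.75 ± 0.432 at the back (SD, n = 5), lower in front in 5 of 5 sheep though nearly equal in sheep 687 (4.19 and 4.20), and their summed level ran from 126 to 283 CPM over the anterior and from 123 to 474 CPM over the posterior libraries, with no marker at 0. Endothelial markers had a median of -0.65, with 4 of 7 lower at an unadjusted p below 0.05. In bulk tissue, fewer cells of a type and less RNA per cell cannot be told apart. The share of reads on mitochondrial entries was 18.9% ± 1.80 in front and 22.7% ± 4.37 at the back, higher in front in 2 of 5 sheep. The part of these measures in the gene differences was not tested, except that over 25 libraries RXRG had an adjusted p of 0.0906 in edgeR without and 0.624 with the mitochondrial share in the fit. Over all alternatives its adjusted p ran from 7.77e-21 with DESeq2 to 0.757 in edgeR without the MC libraries.

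**Figure D2:**
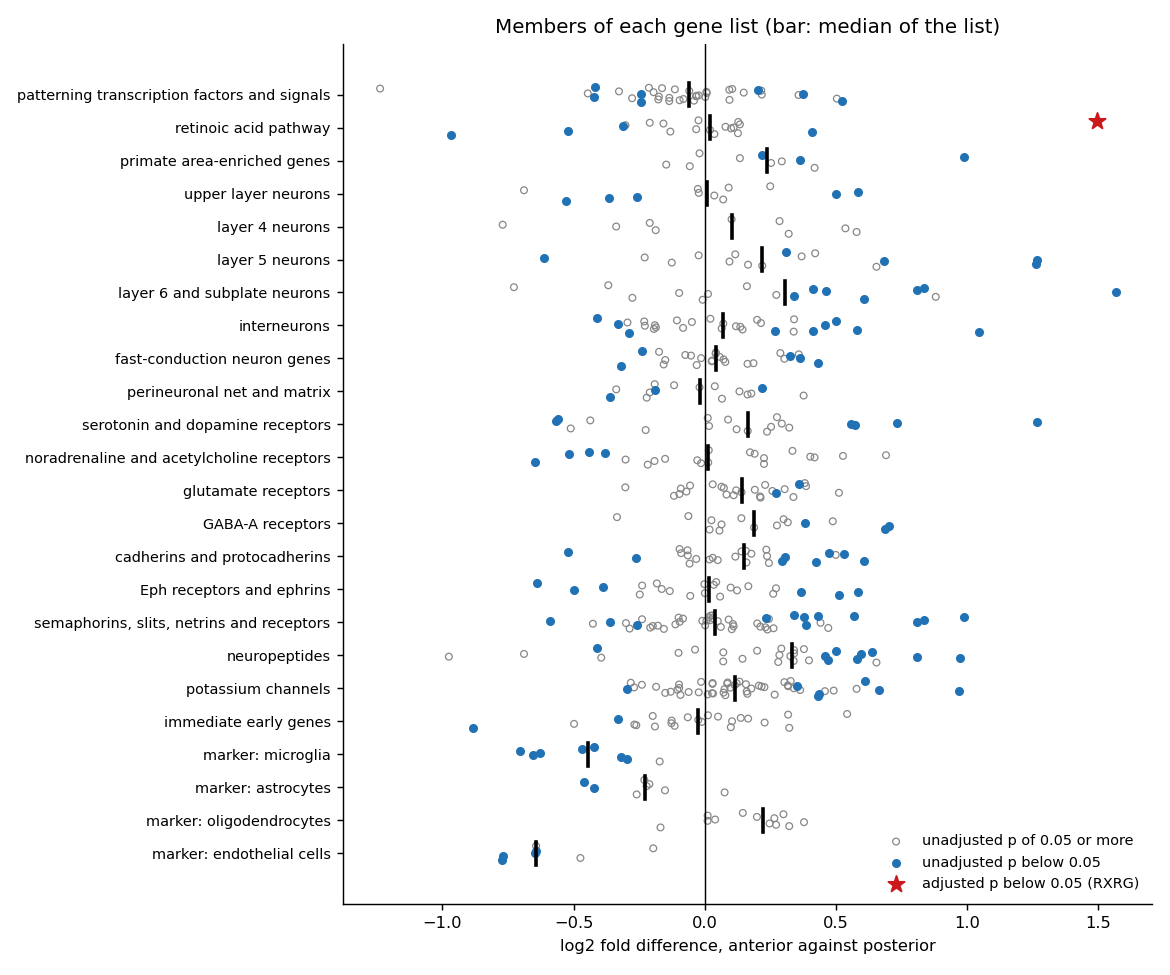
Log2 fold difference between the anterior and the posterior side (x axis) of each tested member of the gene lists (y axis), with the list's median as a bar. Filled points have an unadjusted p below 0.05, and the star marks RXRG (1.5), the only gene with an adjusted p below 0.05; microglial markers (median -0.45) lie below 0 and layer 6 genes (median 0.31) mostly above.

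The side comparison was split into 2 contrasts that share no library, PC against VC and FC with MC against PPC, to see whether 1 pair of dissections carried it. Between PC and VC, edgeR called 0 of 19104 genes (0%), limma called 0, DESeq2 called 15, and 376 genes (1.97%) had an unadjusted p below 0.05, 0.864% higher and 1.1% lower in PC. The sign was the same in all 5 sheep for 3.64% of genes, 1.85% higher and 1.78% lower. LIN28B differed by 1.93 ± 0.46 and ALDH1A1 by -0.97 ± 0.17, with adjusted p values of 0.999 in edgeR. Immediate early genes had a median of -0.42, with 7 of 23 lower and 1 higher at an unadjusted p below 0.05. Oligodendrocyte markers had a median of -0.64, and 4 of 12 were lower. Microglial markers had a median of -0.03. Layer 6 and subplate genes had a median of -0.11, with 4 above and 11 below 0. Glutamate receptor genes (7 above, 18 below) and potassium channel genes (14 above, 37 below) also lay mostly below 0. Layer 5 genes (8 above, 6 below) and neuropeptide genes (15 above, 12 below) did not.

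Between FC with MC and PPC, many genes differed. Called were 1467 of 19843 genes (7.39%), 723 higher (3.64%) and 744 lower (3.75%) in FC and MC, and 5384 genes (27.1%) had an unadjusted p below 0.05. The sign was the same in all 5 sheep for 1453 of the 1467, against 26% of all genes tested, and a paired test favours such genes. The 5 values of 1 side did not overlap those of the other for 564, and 183 (0.922% of genes tested) differed by at least 1 on the log2 scale, 0.59% higher and 0.333% lower. Over all genes tested the sides did not overlap for 5.29%, 3.36% higher and 1.93% lower. The median absolute log2 fold change of the called genes was 0.65. The balance between higher and lower genes differed in an alternative that changed both the summary and the test: on the mean of log2(CPM + 1) per animal and side, limma called 2002 higher and 400 lower, while the median over all genes moved from -0.03 to 0.08.

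The number of calls varied with the animals and regions that entered. It was 433, 0, 1, 819 and 1252 without sheep 687, 688, 690, 694 and 699, and edgeR called 0 genes for FC alone against PPC and 0 for MC alone, where 4160 and 3681 genes had an unadjusted p below 0.05. Without the MC library of sheep 687 it was 1590, of which 1234 were among the 1467, and 12 of 85 genes examined singly lost the call. Of genes described below these were C25H10orf105 (0.75 without the library, adjusted p 0.465 in edgeR), RXRG (1.05, 0.127), PDYN (0.44, 0.314), KCNH3 (-0.38, 0.0845), FLT1 (-1.09, 0.0727), TPBG (2.13, 0.0540) and CAMK2A (-0.41, 0.0713). Without the animal block it was 18. The mitochondrial share moved with this contrast: it was 14.2%, 16.2%, 16.0%, 18.4% and 20.5% in FC and MC and 24.6%, 20.4%, 24.1%, 30.4% and 27.0% in PPC of the same sheep, higher in PPC in each. With that share in a fit over 25 libraries, 0 genes were called and 1184 had an unadjusted p below 0.05. The 25-library fit without it called 1893 genes, and 1775 with the oligodendrocyte marker level in its place.

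**Figure D3:**
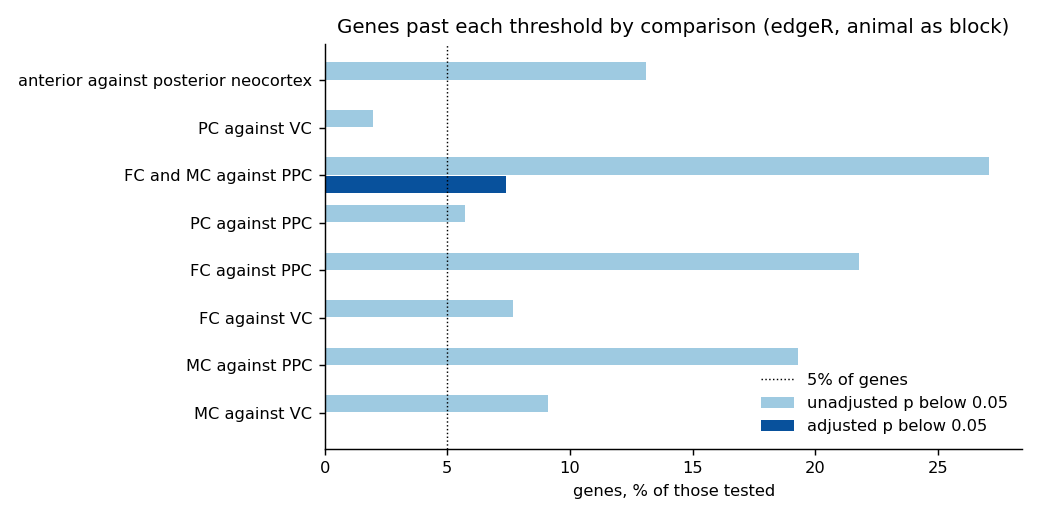
Share of tested genes (x axis, %) with an unadjusted p below 0.05 (light bars) and an adjusted p below 0.05 (dark bars) in edgeR, for the side comparison, the 2 contrasts that share no library and the other pairs of 1 anterior and 1 posterior region (y axis). The unadjusted share runs from 1.97% for PC against VC to 27.1% for FC with MC against PPC, the only comparison with more than 1 gene past the adjusted threshold.

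Guidance, adhesion and receptor genes of neurons were among those that rose in FC and MC relative to PPC. Of 8 general markers of excitatory neurons, 7 were above 0, with a median of 0.47, and 1 was called higher and 1 lower. SLC17A7, the vesicular glutamate transporter, rose by 0.83 ± 0.18 and the kinase gene CAMK2A fell by 0.50 (SE 0.10). The mean log2(CPM + 1) of the 8 markers was 6.90 ± 0.378 in FC and MC and 6.48 ± 0.470 in PPC (SD, n = 5), higher in FC and MC in 3 of 5 sheep. In sheep 687 it was 7.19 in FC, 5.77 in the MC library that stood apart and 6.76 in PPC. The summed level of the markers had a median of 3736 CPM over the FC and MC libraries (2075 to 4924 CPM). Over PPC it was 4188 CPM (3461 to 5020.4 CPM). The 2 measures went in opposite directions, but they are unlike in scaling and summary. The first uses total counts and is averaged per animal, and the second uses TMM factors and is a median over libraries. The part of these markers in the neuronal gene differences was not tested. The counts of list members that follow stand against 3.64% of all genes called higher and 3.75% called lower. SLIT1 was at 100.3, 73.4, 76.6, 73.4 and 51.6 CPM in FC and MC and at 27.4, 20.6, 27.0, 18.8 and 18.5 CPM in PPC. The sides were far apart in every sheep, and SLIT1 had the smallest adjusted p of the genes named here, 0.00514 in edgeR, with a log2 fold change of 1.70 ± 0.11. In VC it was at 121 CPM in sheep 687 and at 40.8 CPM or less in the other sheep, and PC against VC differed by 0.17 ± 0.47. SEMA3E rose by 1.48 ± 0.25 (1.14 without the MC library of sheep 687, where it was at 109 CPM), and its difference between PC and VC had the opposite sign, -0.85 ± 0.26. Of 46 tested semaphorins, slits, netrins and their receptors, 8 rose and 0 fell, among them the plexin PLXNC1 by 0.79 ± 0.09. Among 22 Eph receptors and ephrins, 4 rose and 0 fell, led by EPHA4 with 0.83 ± 0.10. Of those that rose, EFNB3 and EFNB2 lost the call without the MC library of sheep 687. Among 26 cadherins and protocadherins, 5 rose and 0 fell, such as CDH18 with 1.19 ± 0.19.

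Synaptic receptor genes were also among those that rose. List medians were 0.49 for GABA-A and 0.28 for glutamate receptors, beside 0.47 for the excitatory neuron markers. Of 14 tested GABA-A receptor subunits, the parts of the main inhibitory chloride channel, 6 rose, 0 fell and the median was 0.49, against -0.03 over all genes. GABRB1, which was among the 6, lost the call without the MC library of sheep 687. GABRA3 was at 93.3, 120.2, 98.01, 93.0 and 75.2 CPM in FC and MC and at 53.6, 49.7, 34.9, 31.4 and 52.2 CPM in PPC, without overlap. Of 25 glutamate receptor genes, 7 rose and 0 fell. The kainate receptor GRIK3 rose by 1.06 ± 0.17 and the NMDA receptor subunits GRIN2A and GRIN2B by 0.68 ± 0.08 and 0.52 ± 0.10. Among 51 potassium channel genes 9 rose and 1 fell. KCNT2, a sodium-activated channel, rose by 1.17 ± 0.10 and KCNH3 fell by 0.47 (SE 0.10).

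Some deep-layer and secretory neuron genes rose as well. Among layer 6 and subplate genes, 5 of 15 rose and 0 fell. The synaptic ligand NXPH4 was at 1.95, 3.87, 3.75, 5.76 and 5.36 CPM in FC and MC and at 1.40, 0.610, 1.06, 0.581 and 0.645 CPM in PPC, a rise of 2.18 ± 0.40 that was smallest in sheep 687. OPRK1, the kappa opioid receptor, rose by 1.12 ± 0.18. Of 14 layer 5 genes 3 rose, with HTR2C at 1.79 ± 0.27 (1.37 without the MC library of sheep 687), CRYM at 1.59 ± 0.38 and VAT1L at 0.54 ± 0.10. Choroid plexus and ependyma markers had a median of 0.88 in this contrast, with 6 of 6 above 0 and 0 called. Of 27 neuropeptide genes 4 rose (SCG2, PDYN, VGF and CHGB), by 0.76 to 1.06. Of 10 tested genes known to differ between areas of primate cortex, SLIT1, SPOCK1 and CHRM2 rose. SPOCK1, a matrix proteoglycan, was at 163, 167, 159, 177 and 168 CPM in FC and MC and at 124, 128, 113, 116 and 112 CPM in PPC, an even difference of 0.43 ± 0.08. In the retinoic acid pathway RXRG and CBLN2 rose among 19 tested, by 1.49 ± 0.17 and 0.63 ± 0.13.

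Among the genes with the largest rises were GDA, the guanine deaminase, at 112 ± 25.2 CPM against 33.3 ± 19.3 CPM, and the synaptic vesicle protein SV2B at 242 ± 46.3 CPM against 81.9 ± 38.3 CPM. OLFML2B, an extracellular olfactomedin-domain protein, rose by 1.64 ± 0.25 and SHROOM3, an actin regulator of cell shape, by 1.67 ± 0.28. KLK7, TPBG, B3GALT5, C25H10orf105 and TNFSF4, all with means under 10 CPM, rose by 1.62 to 2.78. B3GALT5 was at 27.1 CPM and C25H10orf105 at 34.4 CPM in the MC library of sheep 687 and at 6.64 and 4.72 CPM or less elsewhere, and without that library B3GALT5 differed by 1.44. For 8 of the 12 genes named for the largest rises, the difference between PC and VC was below 0.5 in size. The share of all genes below that size is not given here.

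Glial and vascular markers were among the genes that fell. Of 8 microglial markers, 7 fell in FC and MC relative to PPC, 0 rose, and the median was -0.75. CSF1R was at 47.6, 54.4, 79.1, 74.8 and 73.9 CPM in FC and MC and at 97.6, 90.6, 169, 173 and 112 CPM in PPC, without overlap, a fold change of 0.51 that amounts to -0.97 ± 0.11 on the log2 scale (adjusted p 0.0206, edgeR). The purinergic receptor P2RY12 fell by 1.05 (SE 0.16), CX3CR1, the receptor for a neuronal chemokine, by 0.97 (SE 0.14), and TMEM119 by 0.77 (SE 0.09). CD14, a lipopolysaccharide co-receptor of myeloid cells, fell by 1.24 (SE 0.16). The summed level of the 8 markers ran from 126 to 243 CPM over the 10 FC and MC libraries and from 238 to 474 CPM over the 5 PPC libraries, with no marker at 0. Without the MC library of sheep 687, 7 of 8 were called lower, and with the mitochondrial share in the fit 0 of 8 were called and 7 of 8 were below 0.

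Astrocyte markers fell in 4 of 8 cases and rose in 0, with the glutamate transporters SLC1A2 and SLC1A3 at -0.82 ± 0.15 and -0.66 ± 0.14. Oligodendrocyte precursor markers fell in 4 of 7 cases, among them PDGFRA with -0.69 ± 0.16 and GPR17 with -0.62 ± 0.12. Of 7 endothelial markers, 7 were below 0, with a median of -0.97 and 5 lower at an unadjusted p below 0.05. The 1 that passed the adjusted threshold was FLT1, a VEGF receptor. FLT1 was at 22.4, 30.5, 38.6, 40.8 and 54.2 CPM in FC and MC and at 31.2, 57.6, 103, 227 and 76.6 CPM in PPC. Its PPC value in sheep 694 stood far above the others, in a library whose endothelial list as a whole (7.29), pericyte and meningeal markers were also high. ADGRF5, an endothelial adhesion receptor, fell by 1.18 (SE 0.21), GPR4, a proton-sensing receptor of endothelium, by 1.21 (SE 0.23), and TOP2A by 1.32 (SE 0.15). Mature oligodendrocyte markers had 0 of 12 called, and their median was 0.52. In the patterning list 3 of 37 genes fell and 0 rose. They were the ligand WNT7B with -0.71 ± 0.11, the growth factor receptor FGFR3, also an astrocyte marker, with -0.75 ± 0.12, and EMX2 with -0.39 ± 0.09, whose sign turned to 0.17 with the mitochondrial share in the fit.

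**Figure D4:**
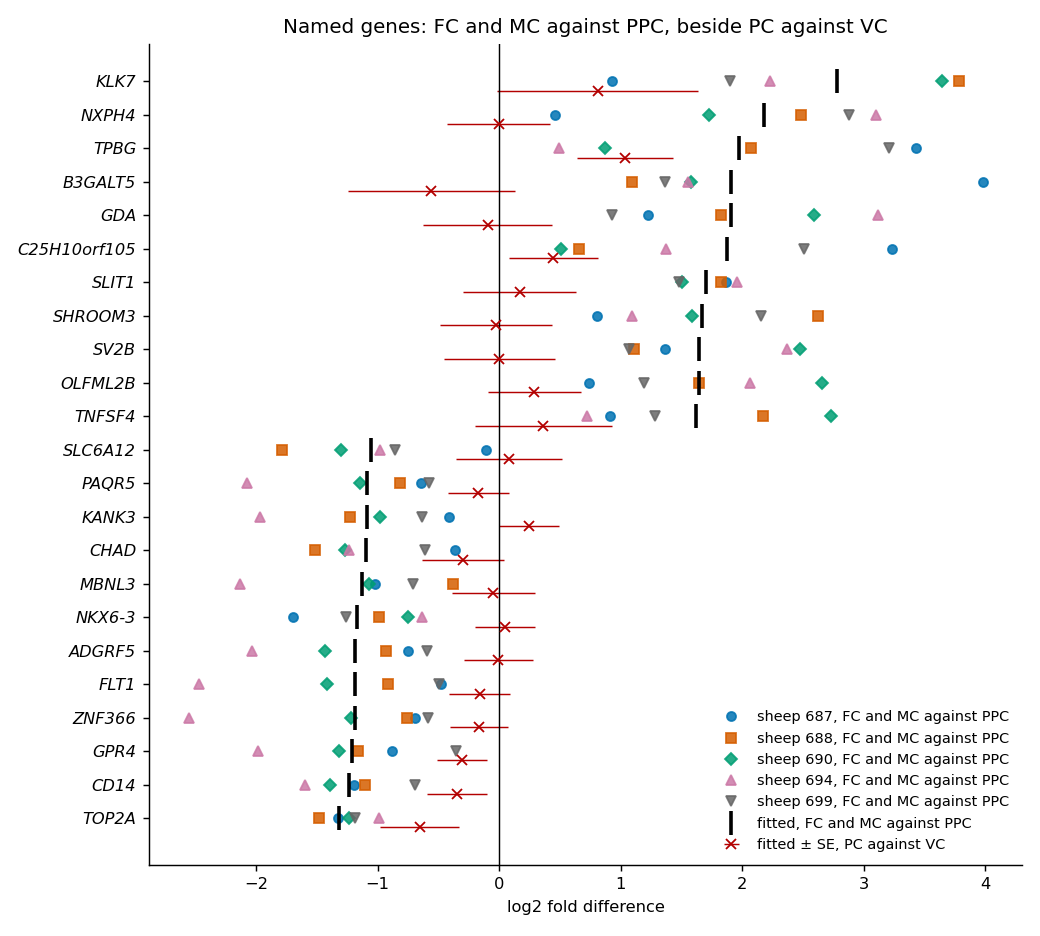
Log2 fold difference (x axis) of 23 genes named for the largest rises and falls between FC with MC and PPC (y axis), 1 symbol per sheep with the fitted value as a black bar, and the fitted value ± SE for PC against VC as a red cross. All 5 sheep lie on the same side of 0 for each gene because the genes were chosen so, and the cross of TPBG (1.04) lies farthest from 0.

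**Figure D5:**
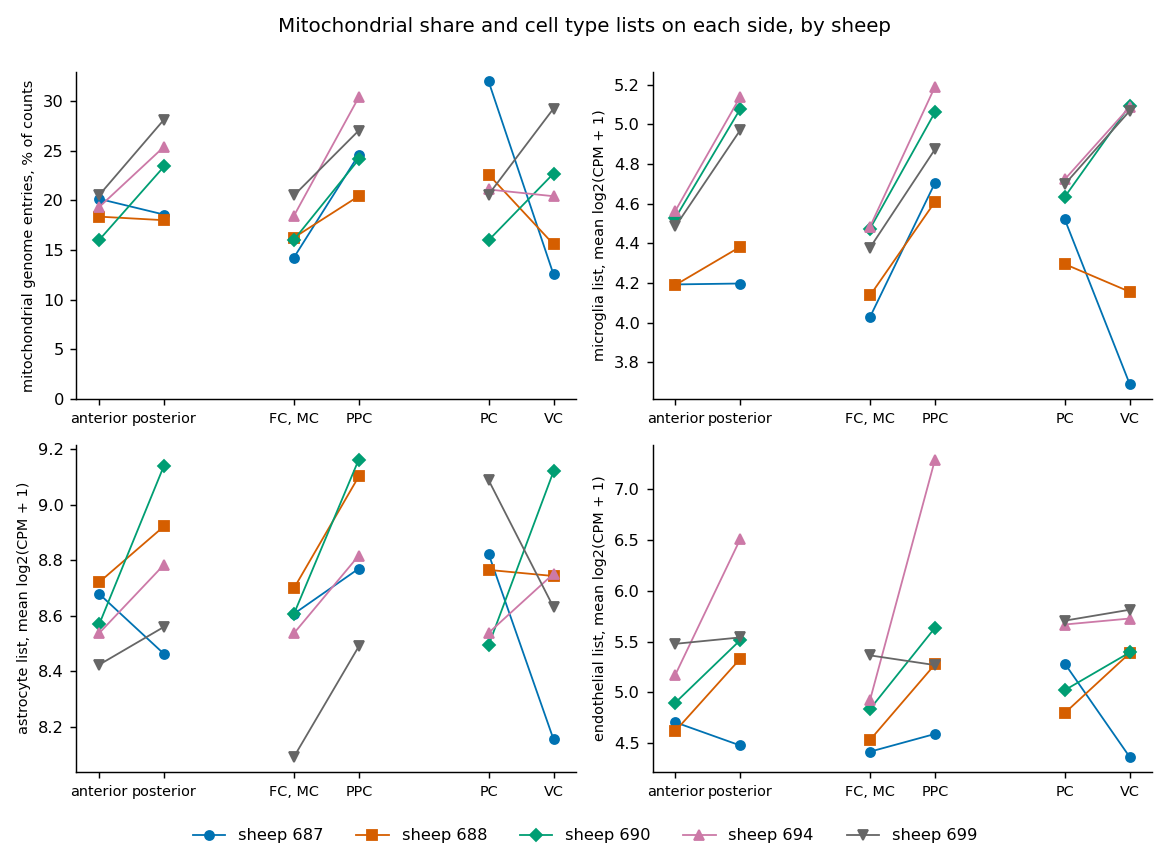
Mitochondrial share of counts and mean log2(CPM + 1) of the microglia, astrocyte and endothelial lists (y axes) on the 2 sides of each contrast (x axes), 1 line per sheep. Microglial values are higher in PPC than in FC and MC in all 5 sheep (means 4.89 against 4.30), and between PC and VC the lines of sheep 687 and 688 fall while those of the other 3 sheep rise.

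The 2 contrasts that share no library were set against each other directly. Of the 1467 genes called for FC and MC against PPC, 1455 were also tested for PC against VC. There, 483 had the same sign and 972 the opposite sign. An unadjusted p below 0.05 was seen in 14, against 1.97% of all genes tested for PC against VC. The share of opposite signs over all genes is not given here, so these counts cannot be read as particular to the called genes. The genes that rose had a median of 0.64 for FC and MC against PPC and -0.10 for PC against VC, and those that fell had -0.65 and 0.03. A test of the difference between the contrasts over 25 libraries, chosen after the data were seen, called 0 of 20045 genes (0%) in edgeR. At an unadjusted p below 0.05 there were 3314 genes (16.5%), including 1145 of the 1467. The 1467 had been selected on the FC, MC and PPC libraries that also enter this test. Their share is therefore raised by the selection and shows no disagreement between the contrasts. For no single gene was the difference between the contrasts past the adjusted threshold.

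Among the 6 pairs of 1 anterior and 1 posterior region, edgeR called 0 genes in each. The number at an unadjusted p below 0.05 was 1092 (5.72%) for PC against PPC, 376 for PC against VC, 4160 (21.8%) for FC against PPC, 1470 (7.69%) for FC against VC, 3681 (19.3%) for MC against PPC and 1736 (9.12%) for MC against VC. The pairs with PPC and either FC or MC held the most.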

How the data were processed

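Per the series' design text, libraries came from a stranded mRNA kit with paired reads of 150 bases, and the authors trimmed reads with Trimmomatic 0.39, aligned them with STAR 2.7.5a to the sheep assembly ARS-UI_Ramb_v3.0 and counted reads per gene with Rsubread 2.20.0 (counting options not given in the sources used here). The deposited values are raw counts for 31304 genes, of which 12307 carry placeholder names. Counts were summed per animal and side and tested with edgeR 4.0.16 in R 4.3.3 (quasi-likelihood test, TMM factors, filterByExpr, animal as block, Benjamini-Hochberg adjustment over all genes tested). Summing weights libraries by depth, and the mean of log2(CPM + 1) with equal weights was an alternative, tested with limma 3.58.1. DESeq2 1.42.0 was another. CPM of genes and summed marker levels are TMM-scaled, means of log2(CPM + 1) over lists use total counts, and log2 values are fitted fold changes ± SE. Sheep share their number across regions, so that the number pairs the samples by animal; the median correlation of deviations within an animal was 0.09. The fits were tested on simulated counts that had the same shift in every anterior library and no differences between the regions of a side. Real libraries of a region resembled each other little, so the simulation does not show how the fits perform on these data. The mitochondrial share as a covariate, the fits without a single library, the fits of FC and MC against PPC without FC or MC, and the limma and 25-library fits of the contrasts that share no library were chosen after the data were seen.

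Named were, per direction, the 12 largest changes among called genes that had a mean of at least 3 CPM on the higher side and the same sign in 5 animals, plus up to 4 called members per list and direction with the smallest p. Some genes that the rule or their p chose are not reported here. Other members and genes are named after their values were seen. The regions, lists and members were chosen with earlier results of these data known. Of 564 listed symbols 553 are in the table, and the rest were not analysed here. Coordinates and sequences were not used here.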

Additional observations from a re-analysis of the deposited data

Results flagged for a closer look

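In 232 groups of 5 values (differences per sheep, and levels per region), 12 had a lowest or highest value set apart from the other 4 by more than 0.71 of the group's range. Chance alone flags about 1 in 20 such groups, and 12 of 232 is close to that rate. Of the 12, 2 concern single genes in sheep 687. NXPH4 had a log2 difference of -0.31 between the anterior and the posterior side there, while the other 4 sheep lay between 1.67 and 2.19, and B3GALT5 had a difference of 3.98 between FC with MC and PPC, against 1.09 to 1.58 in the others.

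The other 10 concern marker lists, given as mean log2(CPM + 1) of the list, and a share of counts on placeholder entries, given in percent. In sheep 687, the MC library had high choroid plexus (4.85) and meningeal (4.38) values, the VC library a high claustrum and insula value (5.39), and the anterior minus posterior difference of the claustrum and insula list was -0.46. In sheep 694, the PPC library had high meningeal (5.54) and pericyte (5.97) values, the VC library a high oligodendrocyte value (8.40), and 4 abundant placeholder entries took 4.54% of the counts of the FC library, the lowest share of the 5 FC libraries. In sheep 688, the PC library had low meningeal (2.63) and thalamic (2.97) values.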

How the results depend on the processing

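The anterior and posterior call count of 1 was also 1 with RLE or upper quartile factors, without the 699 MC library, and without FC, where another gene was called. It was 2 without the low-count filter, 421 with DESeq2, 0 with limma on mean log2 CPM, 29 over 25 libraries, 11 with the oligodendrocyte covariate, 0 with the mitochondrial share, 0 without PC, 2 without MC, 0 without PPC, 34 without VC, 0 without the 687 MC library and 3 without the 694 PPC library. Leaving out 1 sheep gave 0 to 102. For PC against VC the 0 calls became 15 with DESeq2 and 0 to 1 without 1 sheep. For FC and MC against PPC the 1467 calls became 183 with a fold threshold of 1 (log2), 3143 with DESeq2 and 2402 with limma. Over 25 libraries they were 1893, 1775 with the oligodendrocyte covariate and 0 with the mitochondrial share. They were 0 without FC, 0 without MC, and 0 to 1252 without 1 sheep. The cause of these changes in the counts was not tested.

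Without the animal block that pairs the sides, the counts were 0 for anterior against posterior, 0 for PC against VC and 18 for FC and MC against PPC.

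Signs turned mostly for values near 0. PAX6 (anterior against posterior) was -0.0046 with upper quartile factors, -0.013 without the block, -0.010 without PC, -0.029 without FC, -0.17 without VC, -0.013 without the 687 MC library and -0.046 to 0.055 without 1 sheep. EMX2 was 0.18 with the mitochondrial share, -0.20 to 0.014 without 1 sheep and 0.12 without PPC, and SP8 was 0.049 without MC. With the mitochondrial share, FEZF2 was -0.15, and for FC and MC against PPC GABRB1 was -0.11 and EMX2 0.17. All other named genes had the same sign in every setting run; 697 of 1530 gene and setting combinations for FC and MC against PPC lost the call.

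The number of animals (5), 1 library per region and animal, and a median SE of 0.13 (log2) limit what the side comparison can show.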

Other observations

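Levels of several genes ranked the anterior regions differently from sheep to sheep. SLIT1 was at 32.5 and 22.9 CPM in PC and at 126 and 100.2 CPM in MC of sheep 687 and 688, whereas it was at 82.4 and 69.8 CPM in PC and at 36.5 and 36.7 CPM in MC of sheep 694 and 699. SERPINI1 was at 56.5 and 51.3 CPM in PC and at 167 and 208 CPM in MC of sheep 687 and 688, and at 128 and 119.9 CPM in PC and at 65.9 and 81.1 CPM in MC of sheep 694 and 699. CRYM showed the same order, with 49.0 and 23.6 CPM in PC and 109 and 102 CPM in MC of sheep 687 and 688, and 67.4 and 51.9 CPM in PC and 35.8 and 36.9 CPM in MC of sheep 694 and 699. At the back, CSF1R in VC was at 45.7 and 66.6 CPM in sheep 687 and 688 and at 136, 133 and 133 CPM in sheep 690, 694 and 699. These genes were picked after their values were seen, and no test was made of the split. Whether dissections or labels of these regions were exchanged in some sheep was not tested, and such an exchange would change what each region and side value stands for.

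The claustrum and insula list also differed between FC with MC and PPC, with a mean log2(CPM + 1) of 4.45 ± 0.204 against 4.02 ± 0.225 (SD, n = 5), higher in FC and MC in 5 of 5 sheep, and 1 of its 6 tested genes, OPRK1, was called. Perineuronal net and matrix genes had 1 member higher (SPOCK1) and 3 lower (BCAN, PTPRZ1 and HAPLN1, which encode proteins of the matrix or bind to it) of 15 in that contrast. Interneuron genes had 0 of 28 called there, with 5 higher and 3 lower at an unadjusted p below 0.05.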
